A study of Mus musculus with 6 samples.

Results

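The Sox factors of neural development were examined for AGO2 binding and for the miRNAs held on their transcripts in newborn mouse brain. The group has 8 members, *Sox2*, *Sox4*, *Sox5*, *Sox6*, *Sox8*, *Sox9*, *Sox10* and *Sox11*, out of 45288 RefSeq genes with a known strand, and its clusters are all those that overlap one of the 8 gene bodies on the same strand in mm10. The assay was AGO2 chimeric eCLIP, in which AGO2 is crosslinked to RNA by UV light and immunoprecipitated (IP), and a miRNA is ligated to the RNA in the same complex so that some reads carry both. Whole brains of newborn (P0) C57Bl/6J mice gave 1 WT library and 2 *Mov10* Deletion libraries, called *Mov10* Deletion 1 and *Mov10* Deletion 2 after their replicate numbers, and a size-matched input of each entered through the ratios of IP to input. MOV10 is an RNA helicase that associates with AGO2, and the design sets AGO2 binding in brains with *Mov10* deleted in part of their cells beside that in WT. *Mov10* Deletion mice combine a conditional *Mov10* knockout, in which floxed exons are removed by Emx1-Cre, with a heterozygous *Mov10* mutation. Emx1-Cre acts mainly in the excitatory neuron lineage of neocortex and hippocampus, so a whole brain also holds cells in which the floxed allele is intact. How many brains went into a library is not given in the sources used here.

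Sox proteins are transcription factors that bind DNA through an HMG box and are grouped by sequence. *Sox2* (SoxB1) keeps neural progenitors undifferentiated, *Sox4* and *Sox11* (SoxC) act in newly born neurons, *Sox5* and *Sox6* (SoxD) shape the identity and timing of cortical neurons and of glia, and *Sox8*, *Sox9* and *Sox10* (SoxE) act in glia, with *Sox9* needed for the switch from neurons to glia and *Sox10* for oligodendrocyte differentiation. A miRNA guides AGO2 to an mRNA mainly by pairing of its seed, bases 2 to 8, usually in the 3'UTR, and brain is rich in miR-124, miR-9, miR-125b and let-7.

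A chimeric target cluster names a miRNA, so the sequences can be read beside the binding data. The mature miRNAs below are those named on a Sox gene in WT and in at least 1 *Mov10* Deletion library for which RefSeq (GRCm38.p6) held a sequence, with the seed in capitals and miRNAs of the same seed next to each other. The last, miR-9-3p, was added after its values were seen because both *Mov10* Deletion libraries named it at a single position of *Sox4*. miR-124-3p and miR-466f-3p were also named in both genotypes.
let-7a-5p: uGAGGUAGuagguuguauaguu
let-7b-5p: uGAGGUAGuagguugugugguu
let-7c-5p: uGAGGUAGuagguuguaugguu
let-7d-5p: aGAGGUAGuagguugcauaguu
let-7e-5p: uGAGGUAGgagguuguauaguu
let-7f-5p: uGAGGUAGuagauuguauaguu
miR-125a-5p: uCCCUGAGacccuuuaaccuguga
miR-125b-5p: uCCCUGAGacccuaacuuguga
miR-30c-5p: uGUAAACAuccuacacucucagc
miR-30e-5p: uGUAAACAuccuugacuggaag
miR-9-5p: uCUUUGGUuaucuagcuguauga
miR-128-3p: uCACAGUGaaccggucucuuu
miR-138-5p: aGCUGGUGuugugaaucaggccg
miR-181a-5p: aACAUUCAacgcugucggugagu
miR-191-5p: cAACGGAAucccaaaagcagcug
miR-324-5p: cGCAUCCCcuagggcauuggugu
miR-700-5p: uAAGGCUCcuuccugugcuugc
miR-9-3p: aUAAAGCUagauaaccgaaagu

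The stretches of 30 nt printed here come from target positions that the results below turn on, most of them named in WT and in a *Mov10* Deletion library, and do not cover every such position. They are read in the sense direction from GRCm39. Capitals mark the letters complementary to the seed of the named miRNA, either all 7 or, where no 7-nt match lay in the cluster, bases 2 to 7. Nucleotides (nt) are counted from the 5' end of the gene, and the position of the capitals in GRCm39 is given in the sentences that follow. The cluster coordinates in the rest of the text are those of mm10, and none were converted.
*Sox11* nt 2283, let-7: ttttggtaactcgttcccttaTACCTCctt
*Sox11* nt 4310, miR-181: ccattcccagtgaactctatTGAATGTcta
*Sox11* nt 5352, miR-125: gaaactttgtttattacagttTCAGGGaag
*Sox11* nt 5488, miR-700-5p: cctgcaagcacgacaggactGAGCCTTaca
*Sox11* nt 7401, miR-125: cttggaatgcagtgttaatgCTCAGGGttg
*Sox11* nt 8075, miR-30: atcagatttttttaaagatgTGTTTACatg
*Sox4* nt 995, miR-191-5p: gctcaaggacagcgacaagaTTCCGTTcat
*Sox4* nt 3908, miR-30: atcagcccctggtttctccaTGTTTACact
*Sox4* nt 4120, miR-9-3p: acagcaaaaagggattctgtAGCTTTAact
*Sox5* nt 665683, let-7: attagctccatacaactcatCTACCTCacc
*Sox6* nt 518260, let-7: cagtttgttatctatcacagCTACCTCaga

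In GRCm39 the *Sox11* matches lie on the minus strand of chromosome 12, from nt 2283 at 27390430 to 27390435 down to nt 8075 at 27384637 to 27384643, and all are in the 3'UTR. The *Sox4* matches lie on the minus strand of chromosome 13, at 29136682 to 29136688 in the coding sequence (CDS) and at 29133769 to 29133775 and 29133557 to 29133563 in the 3'UTR. The *Sox5* match is in the CDS, on the minus strand of chromosome 6 at 144062325 to 144062331. The *Sox6* match is in an intron, on the minus strand of chromosome 7 at 115121746 to 115121752. Each motif was searched on the sense strand only. In *Sox11*, the miR-125 match CTCAGGG, the miR-700-5p match GAGCCTT, the miR-181 match TGAATGT and the miR-30 match TGTTTAC each occur at 1 position of the gene, so that 0.884% of all windows of 80 nt, the median width of its WT target clusters, hold any given one. The 6-nt match TCAGGG occurs at 4 positions and 4.94% of windows of 108 nt hold it, while TACCTC occurs at 1 position and 1.02% of windows of 90 nt hold it. In *Sox4*, TTCCGTT occurs at 2 positions (2.24% of windows of 59 nt), TGTTTAC at 1 (1.55% of windows of 79 nt) and AGCTTTA at 1 (1.66% of windows of 84 nt). CTACCTC occurs at 57 positions of *Sox5* (0.399% of windows of 74 nt) and at 45 positions of *Sox6* (0.425% of windows of 60 nt).

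The libraries differ in depth, which is not known in total. An AGO2 cluster is a stretch of piled-up IP reads, and each has a deposited ratio to its input, given as log2, and a p-value, given as −log10. A cluster was called enriched when both were at least 3. Whole numbers of reads inferred from these values put the smallest enriched cluster over 1 input read at 16 IP reads in the WT library but at 9 and 8 in *Mov10* Deletion 1 and 2, so the same fold rests on fewer reads in the *Mov10* Deletion libraries. WT had 359172 AGO2 clusters, and the *Mov10* Deletion libraries had 616014 and 616005. All 1346 clusters in the Sox genes have identical coordinates in the *Mov10* Deletion libraries and none has those of a WT cluster, so the *Mov10* Deletion libraries give separate ratios but not separate positions. In *Mov10* itself, the deleted gene, 1 of 11 AGO2 clusters was enriched in WT and 0 of 9 in each *Mov10* Deletion library, which is binding and does not measure how much of the transcript was lost. WT is a single library, so nothing here tests 1 genotype against the other. As a check of the tissue, the 4 markers each of neurons, progenitors, astrocytes and the oligodendrocyte lineage all had AGO2 clusters in every library, whereas 1 of 6 markers of other tissues did.

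*Sox11* and *Sox5* carried most of the miRNA target clusters of the group, and did so in different places. All 17 target clusters of *Sox11* in WT, 14 in *Mov10* Deletion 1 and 9 in *Mov10* Deletion 2 lay in its 3'UTR, whereas 16 of 18, 18 of 21 and 11 of 14 of those in *Sox5* lay in introns. The other genes had few. *Sox4* had 4, 5 and 1 in the same order of libraries, *Sox6* 2, 9 and 3, *Sox9* 2, 3 and 1, *Sox8* 1 in each, and *Sox2* 1, none and 1. *Sox10* had no target cluster in any library, in lists that start at a score of 3. In all, 7 of the 8 genes had a target cluster in WT, against 40.9% of all genes with an AGO2 cluster, 6 in *Mov10* Deletion 1 (45.9% of all genes) and 7 in *Mov10* Deletion 2 (32.2%). In whole brain, fewer cells of a type and less RNA per cell cannot be told apart, which holds for every count of clusters given here.

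The miRNAs named on these genes were led by those common in brain, in other proportions than over the whole library. A cluster named for several miRNAs gives an assignment to each. miR-124-3p took 18 of the 80 assignments in the Sox genes in WT (22.5%, against 42.2% over all genes), 15 of 74 in *Mov10* Deletion 1 (20.3%, against 34.8%) and 11 of 39 in *Mov10* Deletion 2 (28.2%, against 36.8%). miR-125b-5p took 12 (15%, against 6.13%), 9 (12.2%, against 5.55%) and 3 (7.69%, against 5.51%). Thus miR-124-3p had a lower share, and miR-125b-5p a higher share, in the Sox genes than in the library in all 3 libraries. *Sox11* alone held 9 of the 12 miR-125b-5p assignments in WT, 5 of 9 in *Mov10* Deletion 1 and all 3 in *Mov10* Deletion 2. let-7c-5p, the next in *Mov10* Deletion 1, was named 5, 6 and 2 times, and miR-9-5p 5 times in WT and 4 times in *Mov10* Deletion 1. let-7b-5p was named 1, 3 and 3 times, which in *Mov10* Deletion 2 equals miR-125b-5p. There let-7c-5p shared its count of 2 with others, among them miR-128-3p, miR-466f-3p and miR-466i-5p. These are shares of assignments of a few genes, and no test was made of them.

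*Sox11* has a single exon of 8451 nt (mm10 chromosome 12, 27334268 to 27342718, minus strand), of which 6956 nt follow its CDS of 1185 nt. By number of target clusters it ranked 60 of the 6390 genes with any in WT, 230 of 7759 in *Mov10* Deletion 1 and 121 of 5418 in *Mov10* Deletion 2, or 2.01, 1.66 and 1.06 target clusters per kb of gene. These clusters named 22 different miRNAs in WT, 18 in *Mov10* Deletion 1 and 11 in *Mov10* Deletion 2. They fell in groups along the 3'UTR, a proximal group of let-7, miR-124-3p and miR-125b-5p, a middle group of miR-125b-5p, miR-700-5p and miR-124-3p, and a distal group of miR-125b-5p and miR-124-3p.

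**Figure D1:**
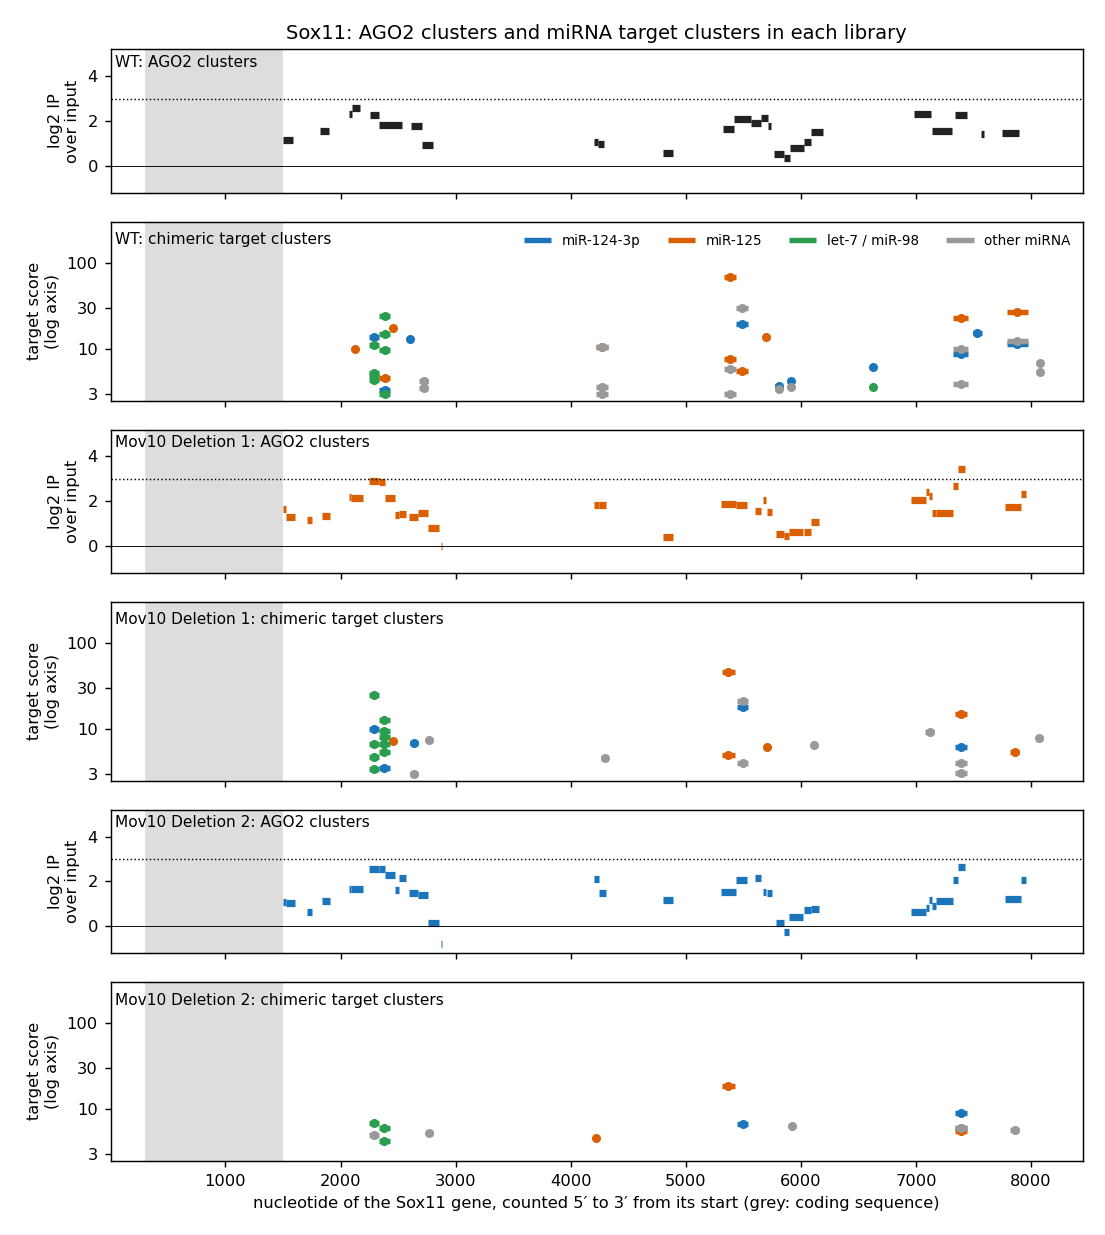
AGO2 clusters (log2 IP over input, dotted line at 3) and chimeric target clusters (deposited score, log axis, coloured by miRNA) along the *Sox11* gene in each library, in nucleotides from its start with the coding sequence in grey. In each library the highest target score is miR-125b-5p in the middle of the 3'UTR (69.1, 45.8 and 18.8), and 1 AGO2 cluster, in *Mov10* Deletion 1, lies above the line.

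The highest score of the gene in each library was that of miR-125b-5p in the middle group. The cluster at chr12:27337283-27337390 had a score of 69.1 in WT, and the overlapping cluster had 45.8 in *Mov10* Deletion 1 and 18.8 in *Mov10* Deletion 2. Among all miR-125b-5p clusters of a library these ranked 7 of 1354, 5 of 1695 and 7 of 742, so this was among the top miR-125b-5p positions of each library. The cluster holds the 6-nt match at nt 5352 and not the 7-nt match. The score is the authors' and its meaning is not given in the sources used here, so scores of different libraries are given side by side and their sizes are not compared.

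The neighbouring cluster at chr12:27337175-27337282 was named for a miRNA with few assignments in these libraries. miR-700-5p had a score of 30.05 there in WT and 21.3 in *Mov10* Deletion 1, and its 7-nt match lies inside the cluster at nt 5488. In the whole WT library miR-700-5p was assigned to 1 cluster, which is this one, and in *Mov10* Deletion 1 it was assigned to 6, among which this had the highest score. In *Mov10* Deletion 2 no cluster of the Sox genes was named for it. miR-124-3p shared the cluster, with scores of 19.5, 17.8 and 6.64 in WT and *Mov10* Deletion 1 and 2.

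In the distal group, the cluster at chr12:27335268-27335395 holds the only 7-nt miR-125 match of the gene. Its miR-125b-5p score was 23.0 in WT, 14.9 in *Mov10* Deletion 1 and 5.51 in *Mov10* Deletion 2, and its miR-124-3p score was 8.66, 6.21 and 9. This was also the site of the only enriched AGO2 cluster of *Sox11*, at chr12:27335293-27335355 in *Mov10* Deletion 1, with a log2 of 3.44 from 106 IP reads over 17 input reads (exact 95% interval 2.69 to 4.27). The same cluster had a log2 of 2.66 in *Mov10* Deletion 2 (37 over 14 reads, 1.74 to 3.66), and the overlapping WT cluster had 2.28. The intervals of the *Mov10* Deletion libraries overlap, and both lie above 0. Here and below, intervals of a log2 value are Clopper-Pearson intervals on inferred reads and cover counting error only. A WT cluster farther downstream, at chr12:27334749-27334928, scored 27 for miR-125b-5p. The overlapping cluster of *Mov10* Deletion 1 scored 5.33, and *Mov10* Deletion 2 had no such assignment. The 6-nt match of this position lies at nt 7874.

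In the proximal group 2 adjoining clusters were named for members of the let-7 family. For let-7c-5p the upstream one, at chr12:27340387-27340476, scored 10.9 in WT, 24.8 in *Mov10* Deletion 1 and 6.82 in *Mov10* Deletion 2. It holds the only 6-nt let-7 match of the gene, at nt 2283, and CTACCTC does not occur in *Sox11*. At the next one, chr12:27340285-27340386, let-7c-5p scored 24.1 in WT and 12.7 in *Mov10* Deletion 1, and in *Mov10* Deletion 2 the miRNA was named on the upstream cluster alone, which meets this WT position by 1 nt. let-7f-5p was named at that position in every library, with 14.9, 5.41 and 5.98. So the order of the 2 let-7c-5p clusters was opposite in WT and *Mov10* Deletion 1.

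Smaller *Sox11* positions were found again with their seed match inside the cluster. miR-181a-5p scored 10.4 in WT and 4.60 in *Mov10* Deletion 1 over TGAATGT at nt 4310, and miR-30e-5p scored 5.37 and 7.75 over TGTTTAC at nt 8075. Both are families with several members of the same seed, and WT also named miR-181c-5p, miR-181d-5p and miR-30c-5p at these positions. In WT 8 of 34 *Sox11* assignments with a mature sequence held their 7-nt match and 12 more held only a 6-nt match, in *Mov10* Deletion 1 6 of 25 and 7 more, and in *Mov10* Deletion 2 3 of 12 and 4 more. Members of a family named on the same cluster are counted separately here.

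The AGO2 clusters of *Sox11* had mostly moderate ratios. In WT 26 clusters had log2 values from 0.35 to 2.58, with a median of 1.56, and none was enriched, although the −log10 p reached 34.0. In the *Mov10* Deletion libraries 37 clusters had a median log2 of 1.57 in *Mov10* Deletion 1 and 1.38 in *Mov10* Deletion 2, with −log10 p up to 42.0 and 24.6. Their log2 values ran from 0.009 to 3.44 in *Mov10* Deletion 1 and from -0.79 to 2.66 in *Mov10* Deletion 2. The median over all AGO2 clusters of a library was 0.76 in WT, 1.12 in *Mov10* Deletion 1 and 1.25 in *Mov10* Deletion 2. All of these *Sox11* clusters lay in the 3'UTR, and 25 of the 26 in WT were overlapped by a cluster in both *Mov10* Deletion libraries. The highest WT value, 2.58, came from 127 IP reads over 18 input reads (interval 1.86 to 3.38), at chr12:27340546-27340619 upstream of the let-7 clusters, where the overlapping clusters had 2.12 and 1.67.

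*Sox4*, the other SoxC gene, is a single exon of 4781 nt (mm10 chromosome 13, 28948919 to 28953699, minus strand) that lies within the lncRNA gene *Gm46405* on the same strand, so its clusters cannot be assigned to either transcript with certainty. Its only enriched cluster was in WT, at chr13:28949547-28949603 in the 3'UTR, with a log2 of 3.17 from 64 IP reads over 6 input reads (interval 1.97 to 4.67). No AGO2 cluster of the *Mov10* Deletion libraries overlapped it, but both named miR-9-3p there, at chr13:28949520-28949603, with scores of 4 and 4.34. *Mov10* Deletion 1 also named miR-124-3p on that target cluster, with 4.90. That stretch holds the only 7-nt miR-9-3p match of *Sox4*, at nt 4120, and the WT library had no target cluster at this position. miR-9-3p comes from the other arm of the hairpin that gives miR-9-5p.

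Other *Sox4* positions were found again in *Mov10* Deletion 1 and not in *Mov10* Deletion 2. miR-30c-5p, at nt 3908, scored 4 in WT and 6.48 in *Mov10* Deletion 1. On that cluster WT also named miR-125b-5p (6.91), miR-30e-5p (3.47) and miR-124-3p (3), which *Mov10* Deletion 1 did not. miR-191-5p, in the CDS at nt 995, scored 3.42 in WT and 4.34 in *Mov10* Deletion 1. miR-125b-5p, at chr13:28950316-28950372 in WT, scored 7.24 and 8.30, with no CTCAGGG in either cluster. The AGO2 cluster on the miR-30c-5p position had a log2 of 1.94 in WT, 2.65 in *Mov10* Deletion 1 (54 over 15 reads, interval 1.80 to 3.58) and 1.88 in *Mov10* Deletion 2, so AGO2 reads were present in *Mov10* Deletion 2 without a named miRNA. The highest *Sox4* value of *Mov10* Deletion 2 was 2.93, in the CDS, from 16 over 5 reads (interval 1.42 to 4.74).

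Most enriched AGO2 clusters of the group lay in *Sox5*, which also held most of all AGO2 clusters in the 8 genes. In WT 40 of 720 clusters in the Sox genes were enriched (5.56%, interval 4.0 to 7.49, against 2.11% of all clusters), 82 of 1346 in *Mov10* Deletion 1 (6.09%, 4.87 to 7.51, against 5.18%) and 51 of 1346 in *Mov10* Deletion 2 (3.79%, 2.83 to 4.95, against 3.10%). *Sox5* held 37, 72 and 36 of these, nearly all in introns, and it is a gene of 953863 nt (mm10 chromosome 6, 143828425 to 144782287, minus strand) with 503 clusters in WT and 932 in each *Mov10* Deletion library. The intervals of these shares are on counts of clusters taken as independent. Clusters of a single gene are not, so the intervals do not measure a spread between genes or libraries. The share of enriched clusters within *Sox5* was 7.36%, 7.73% and 3.86%, and within *Sox6* it was 0, 1.82% and 3.94%. In *Mov10* Deletion 2 the share of *Sox5* was thus close to that of *Sox6*. Of all enriched clusters in the 8 genes, 37 of 40, 77 of 82 and 43 of 51 were intronic, and 1, 1 and none lay in the last 1000 nt of a gene. Clusters that were not enriched were mostly intronic as well, 444, 835 and 870 of them in *Sox5* alone. Few clusters of any kind lay in the last 1000 nt, in *Sox5* 2 in each library. Neither count is therefore read as a trait of enriched clusters.

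**Figure D2:**
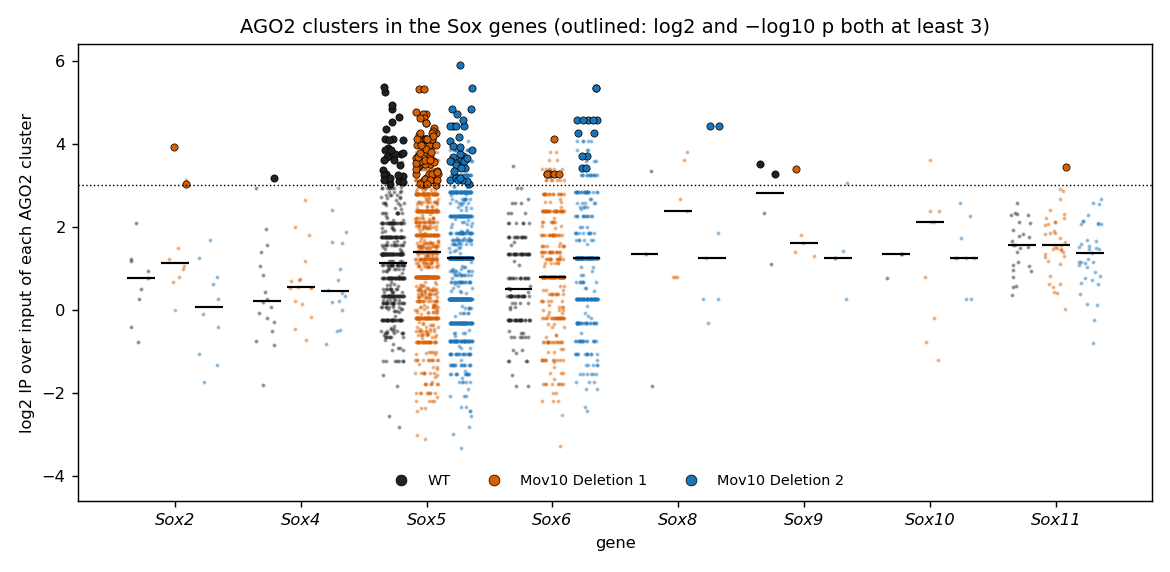
Each point is an AGO2 cluster of a Sox gene, with its log2 IP over input on the vertical axis, coloured by library, with a bar at the median and an outline where log2 and −log10 p are both at least 3. *Sox5* holds 37, 72 and 36 outlined points in WT and *Mov10* Deletion 1 and 2, and *Sox10* none.

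By gene, 3 of 8 had an enriched cluster in WT (*Sox4*, *Sox5* and *Sox9*), against 18.7% of all genes with a cluster. In *Mov10* Deletion 1 there were 5 (*Sox2*, *Sox5*, *Sox6*, *Sox9* and *Sox11*), against 40.9%, and in *Mov10* Deletion 2 there were 3 (*Sox5*, *Sox6* and *Sox8*), against 32.1%. *Sox5* and *Sox6* had an enriched cluster in both *Mov10* Deletion libraries, against 24.1% of all genes. At this threshold *Sox5* was the single gene enriched in all 3 libraries, and at log2 of at least 2 *Sox4* and *Sox11* were as well. At the level of single clusters the *Mov10* Deletion libraries had 21 enriched clusters in common, all in *Sox5*, and the *Sox6* clusters differed between them. Without clusters that lie in another gene on the same strand, *Sox4* was no longer among the genes of WT, nor *Sox2* among those of *Mov10* Deletion 1.

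*Sox5* enriched clusters recurred at a few intronic places. Joined where they were at most 5000 nt apart, they formed 30 loci, of which 7 had an enriched cluster in all 3 libraries, 5 in 2 and 18 in 1. The 7 loci held 29 of the 37 enriched clusters in WT, 38 of 72 in *Mov10* Deletion 1 and 28 of 36 in *Mov10* Deletion 2. Of the 37 WT clusters, 22 were overlapped by an enriched cluster in *Mov10* Deletion 1, 18 in *Mov10* Deletion 2 and 15 in both.

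**Figure D3:**
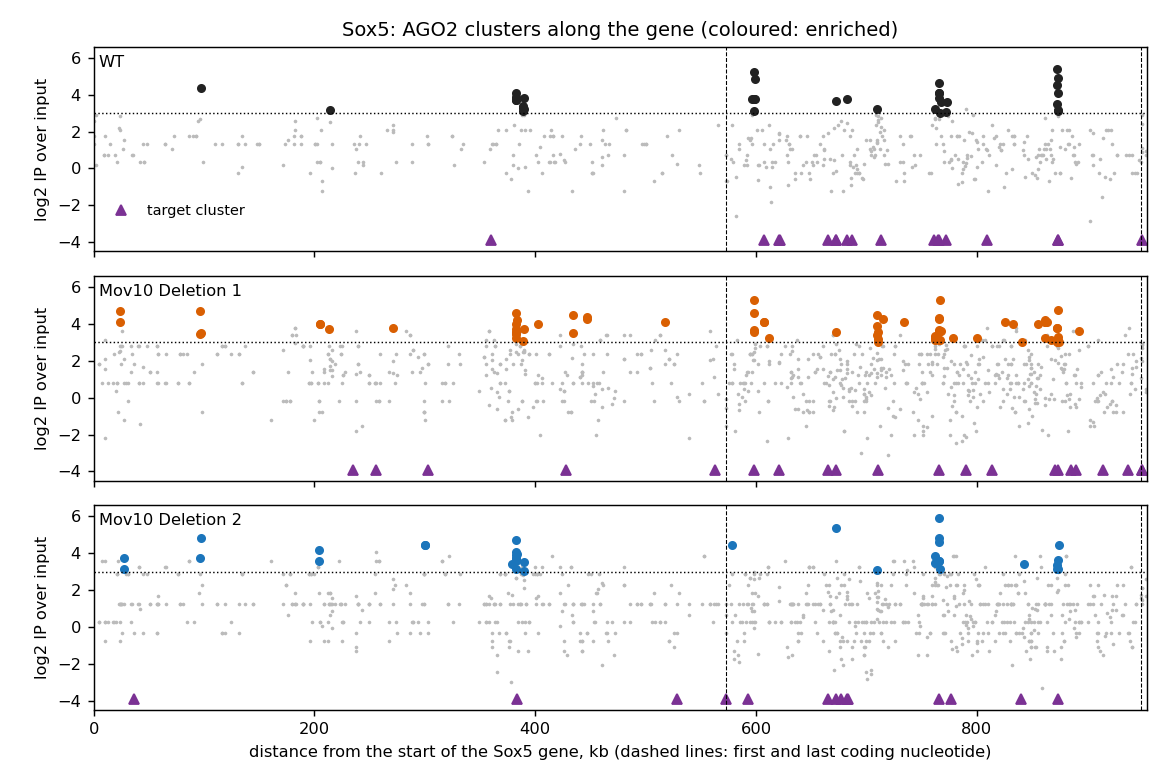
AGO2 clusters along *Sox5* in kb from the start of the gene, with log2 IP over input on the vertical axis, enriched clusters in colour, others in grey, target clusters as triangles, and dashed lines at the first and last coding nucleotide. Enriched clusters stack at the same distances in the 3 libraries, among them a locus with 9, 11 and 8 enriched clusters and another with 7, 7 and 5.

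The locus with the most enriched clusters was chr6:144009444-144020240, with 9 in WT, 11 in *Mov10* Deletion 1 and 8 in *Mov10* Deletion 2, and highest log2 values of 4.65, 5.32 and 5.90. The last is the highest of the whole group, from 25 IP reads over 1 input read (interval 3.29 to 11.26). Its target clusters named different miRNAs in the 3 libraries. WT named miR-466f-3p and miR-9-5p there, *Mov10* Deletion 1 let-7c-5p and miR-466i-5p, and *Mov10* Deletion 2 let-7f-5p, which has the same seed as let-7c-5p and was named on the same cluster, chr6:144016305-144016431.

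At chr6:143908130-143909906 there were 7, 7 and 5 enriched clusters, with highest log2 values of 5.37, 4.75 and 4.42. The WT value came from 49 IP reads over 1 input read (interval 2.83 to 10.70). That AGO2 cluster was overlapped by a WT target cluster named for miR-98-5p (score 4), which has the let-7 seed. The WT target cluster of miR-466f-3p lay on another AGO2 cluster, with a log2 of 3.16. All 3 libraries named miR-466f-3p in this locus, in WT and *Mov10* Deletion 1 at overlapping positions with scores of 5.35 and 4.88, and in *Mov10* Deletion 2 at a separate one with 3.71. miR-466f-3p comes from a large cluster of related miRNAs in an intron of *Sfmbt2*, whose sequences are close to each other, so the choice among them is uncertain. The same miRNA was named at chr6:144161517-144161587, outside the enriched loci, with 4.82 in WT and 11.8 in *Mov10* Deletion 1.

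Another locus had 1 enriched cluster and 1 target cluster in every library. At chr6:144109616-144109857 the log2 was 3.68 in WT, 3.57 in *Mov10* Deletion 1 and 5.34 in *Mov10* Deletion 2, with −log10 p of 11.7, 11.8 and 15.5. miR-124-3p was named there in all 3, with scores of 16.6, 16.5 and 20.3. No other position of the 8 genes had both an enriched locus in each library and overlapping target clusters of the same miRNA in all 3. The other loci enriched in all 3 libraries were chr6:144399078-144403356 (5, 8 and 9), chr6:144392380-144393209 (5, 2 and 2) and chr6:144685215-144685852 (1, 3 and 2), which had no target cluster, and chr6:144071928-144072488 (1, 6 and 1), where *Mov10* Deletion 1 named miR-466f-3p with 4.26.

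In the CDS of *Sox5* the let-7 family was named in every library. At chr6:144116572-144116638 let-7c-5p scored 28.7 in WT, and on the overlapping cluster 15.3 in *Mov10* Deletion 1 and 10.6 in *Mov10* Deletion 2. The 7-nt match CTACCTC lies inside, at nt 665683. WT also named let-7a-5p (6), let-7e-5p (4.76) and let-7f-5p, *Mov10* Deletion 1 named let-7b-5p (8), and *Mov10* Deletion 2 named let-7a-5p (3), let-7b-5p (13.9) and let-7e-5p (10), all of the same seed. The position therefore recurred by seed even where the family member differed. In the 3'UTR, miR-125b-5p at chr6:143832847-143832911 scored 5.0 in WT and 5.57 in *Mov10* Deletion 1.

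*Sox6*, the other SoxD gene, spans 569905 nt (mm10 chromosome 7, 115470872 to 116040776, minus strand) and had fewer enriched clusters. None of its 154 WT clusters was enriched, and the highest log2 there was 3.46 from 13 IP reads over 1 input read (interval 0.72 to 8.87). In *Mov10* Deletion 1 there were 6 enriched clusters of 330 and in *Mov10* Deletion 2 there were 13. They formed 9 loci, each with enriched clusters in 1 library, so no place in *Sox6* was found again. The highest was 5.34 in *Mov10* Deletion 2, from 17 over 1 reads (interval 2.67 to 10.73), at chr7:115976521-115976565.

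A run of 5 enriched clusters in the 3'UTR of *Sox6*, at chr7:115475510-115475581, had a log2 of 4.58 in *Mov10* Deletion 2 alone. All 5 are pieces of 4 to 24 nt with the same 10 IP reads over 1 input read. Adjoining pieces counted once, the 13 enriched clusters of *Mov10* Deletion 2 were 7 runs and the 6 of *Mov10* Deletion 1 were 4. Among its miRNAs, miR-9-5p was named at chr7:115867677-115867743 in WT (8.89) and at the overlapping cluster in *Mov10* Deletion 1 (6.84), in an intron. At nt 518260, also intronic, WT named let-7e-5p (3.86) and *Mov10* Deletion 1 named let-7c-5p (15) over a CTACCTC. Both positions lacked an assignment in *Mov10* Deletion 2.

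*Sox2* spans 2467 nt in a single exon (mm10 chromosome 3, 34649995 to 34652461, plus strand) and lies wholly inside the lncRNA gene *Sox2ot*, which runs from 34560381 to 34677993 on the same strand, so reads of either cannot be told apart. It had 9 AGO2 clusters in WT and 10 in each *Mov10* Deletion library. In *Mov10* Deletion 1 a cluster in the CDS, at chr3:34651197-34651240, had a log2 of 3.91 from 26 IP reads over 3 input reads (interval 2.21 to 6.28). The same cluster had 0.25 in *Mov10* Deletion 2, and the overlapping WT cluster had 2.08 from 15 over 3 reads (interval 0.26 to 4.51). This enrichment was therefore seen in 1 of the 2 *Mov10* Deletion libraries. No miRNA assignment of *Sox2* was shared between libraries, with miR-29b-3p in the 3'UTR in WT (score 5) and miR-19a-3p in the CDS in *Mov10* Deletion 2 (3.53).

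**Figure D4:**
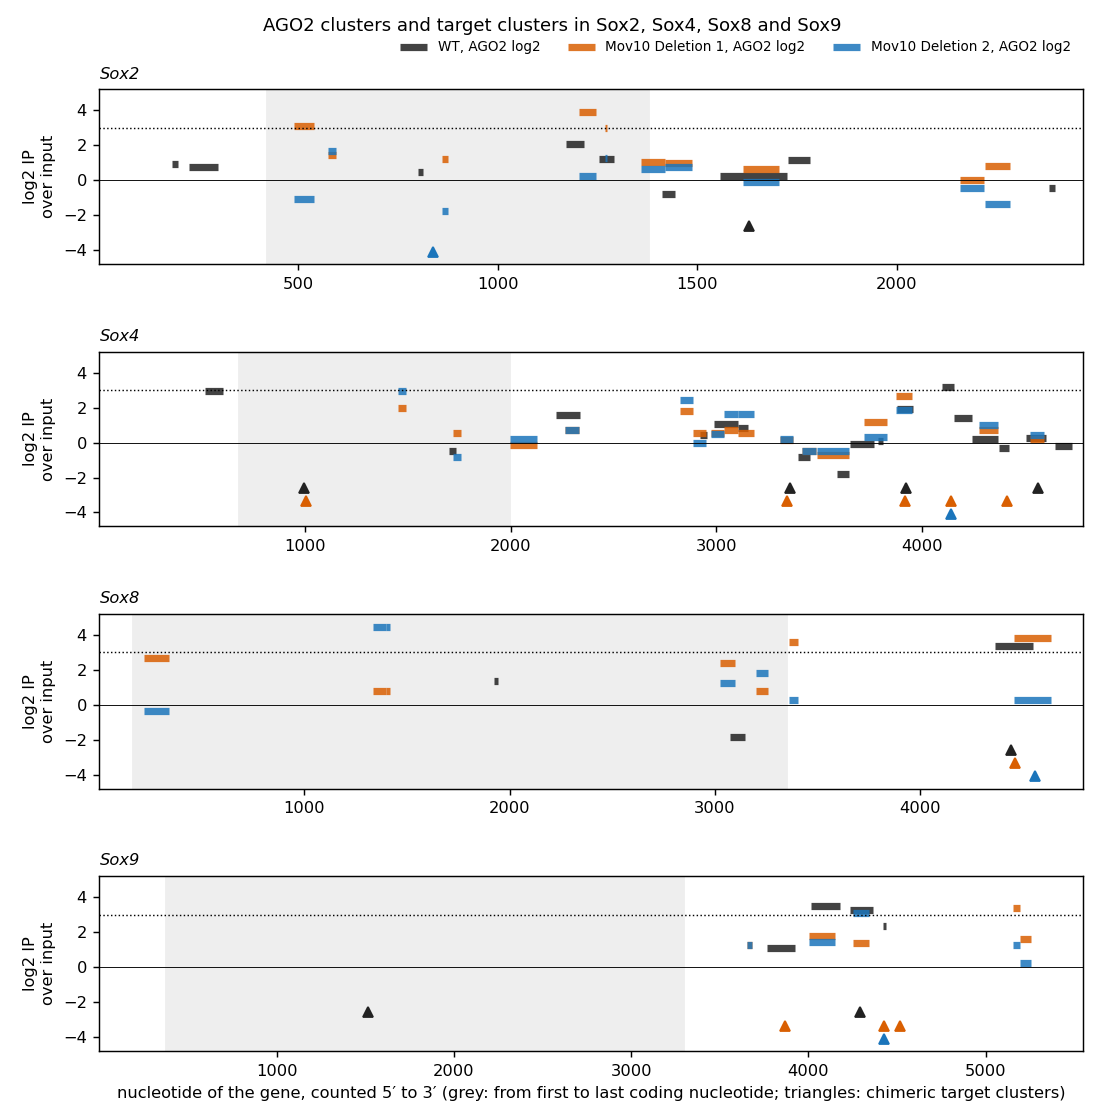
AGO2 clusters (bars, log2 IP over input, dotted line at 3) and chimeric target clusters (triangles) along *Sox2*, *Sox4*, *Sox8* and *Sox9* in each library, in nucleotides from the start of the gene, with the span from first to last coding nucleotide in grey. In *Sox9* both WT clusters above the line (3.51 and 3.28) lie in the 3'UTR, as does the *Sox4* cluster at 3.17.

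Among the SoxE genes, *Sox9* (mm10 chromosome 11, 112782210 to 112787757, plus strand) had enriched clusters in WT, in its 3'UTR. There the cluster at chr11:112786225-112786387 had a log2 of 3.51 from 54 IP reads over 4 input reads (interval 2.07 to 5.44), and the overlapping clusters had 1.80 and 1.41 in *Mov10* Deletion 1 and 2. The next WT cluster, at chr11:112786446-112786575, had 3.28, and the overlapping ones had 1.38 and 3.06, the latter from 7 over 2 reads (interval 0.67 to 6.36). The WT value was higher than both at each position, but the interval of *Mov10* Deletion 2 at the second covers it. No interval was computed for the other overlapping clusters of the *Mov10* Deletion libraries, so their differences from WT were not set against counting error. miR-124-3p was named on that second WT cluster with a score of 15.1. Both *Mov10* Deletion libraries named miR-124-3p farther downstream, at chr11:112786607-112786660, with 7.62 and 5.24, which does not overlap the WT position. *Mov10* Deletion 1 had a single enriched cluster elsewhere in the 3'UTR, with 3.38 from 12 over 2 reads (interval 1.22 to 6.59).

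*Sox8* (mm10 chromosome 17, 25565893 to 25570686, minus strand) had 3 AGO2 clusters in WT and 7 in each *Mov10* Deletion library. miR-124-3p was named in its 3'UTR in every library, at chr17:25566191-25566294 in WT (8.46), overlapping in *Mov10* Deletion 1 (6.82), and at chr17:25566098-25566157 without overlap in *Mov10* Deletion 2 (3.43). The AGO2 clusters there had a log2 of 3.34 in WT (12 over 1 reads, interval 0.58 to 8.76) and 3.80 in *Mov10* Deletion 1 (8 over 1, 0.90 to 9.27), both short of the p-value threshold. In *Mov10* Deletion 2 that cluster had 0.25. The enriched *Sox8* clusters of *Mov10* Deletion 2 were 2 adjoining ones with identical values, 4.42 from 9 over 1 reads (interval 1.57 to 9.88), in an exon of a non-coding transcript, where *Mov10* Deletion 1 had 0.80.

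*Sox10* (mm10 chromosome 15, 79154913 to 79164490, minus strand) had 3 AGO2 clusters in WT and 9 in each *Mov10* Deletion library. None reached a −log10 p of 3, and the highest log2 values were 1.34 (3 over 1 reads), 3.61 (7 over 1) and 2.58 (10 over 4). In WT a cluster over 1 input read needed 16 IP reads to be called enriched, and the highest *Sox10* cluster had 3. With so few reads, the lack of a call does not show that AGO2 was absent.

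In the 8 genes, as over the libraries, AGO2 enrichment and chimeric targets seldom met. Of the target clusters, 6 of 45 in WT overlapped an enriched AGO2 cluster (13.3%, against 15% over the library), 5 of 53 in *Mov10* Deletion 1 (9.43%, against 11.7%) and 2 of 30 in *Mov10* Deletion 2 (6.67%, against 12%). These shares rest on few clusters and are not read as a trait of the Sox genes. They lay below those of the libraries, but their intervals on counts of clusters (5.05 to 26.8, 3.13 to 20.7 and 0.818 to 22.1) cover the library values.

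By median, the positions found again had higher WT scores than the others. Of the 80 WT assignments, 30 overlapped a cluster of the same miRNA in *Mov10* Deletion 1, 14 in *Mov10* Deletion 2, 35 in either and 9 in both. *Sox11* gave 23 of the 35 and 7 of the 9, and *Sox5* gave 7 and the other 2. Among the 9, let-7c-5p of *Sox11* at nt 2333 and at nt 2243 met the same *Mov10* Deletion 2 cluster, the former by 1 nt. The WT score had a median of 19.5 (8.66 to 69.1) for the 9, 8.89 for the 35 and 4.27 (3 to 15.4) for the 45 found in neither. Counted by seed in place of name, 43 were found in either and 18 in both. Between the *Mov10* Deletion libraries themselves, 12 of the 74 assignments of *Mov10* Deletion 1 were also in *Mov10* Deletion 2, which has fewer target clusters in all (12379, against 27152 in *Mov10* Deletion 1 and 18029 in WT). Of the 53 and 30 target clusters of the Sox genes in these 2 libraries, 12 had identical coordinates in both, and none had those of a WT cluster. A position found in both *Mov10* Deletion libraries may therefore not be 2 separate calls of that position.

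**Figure D5:**
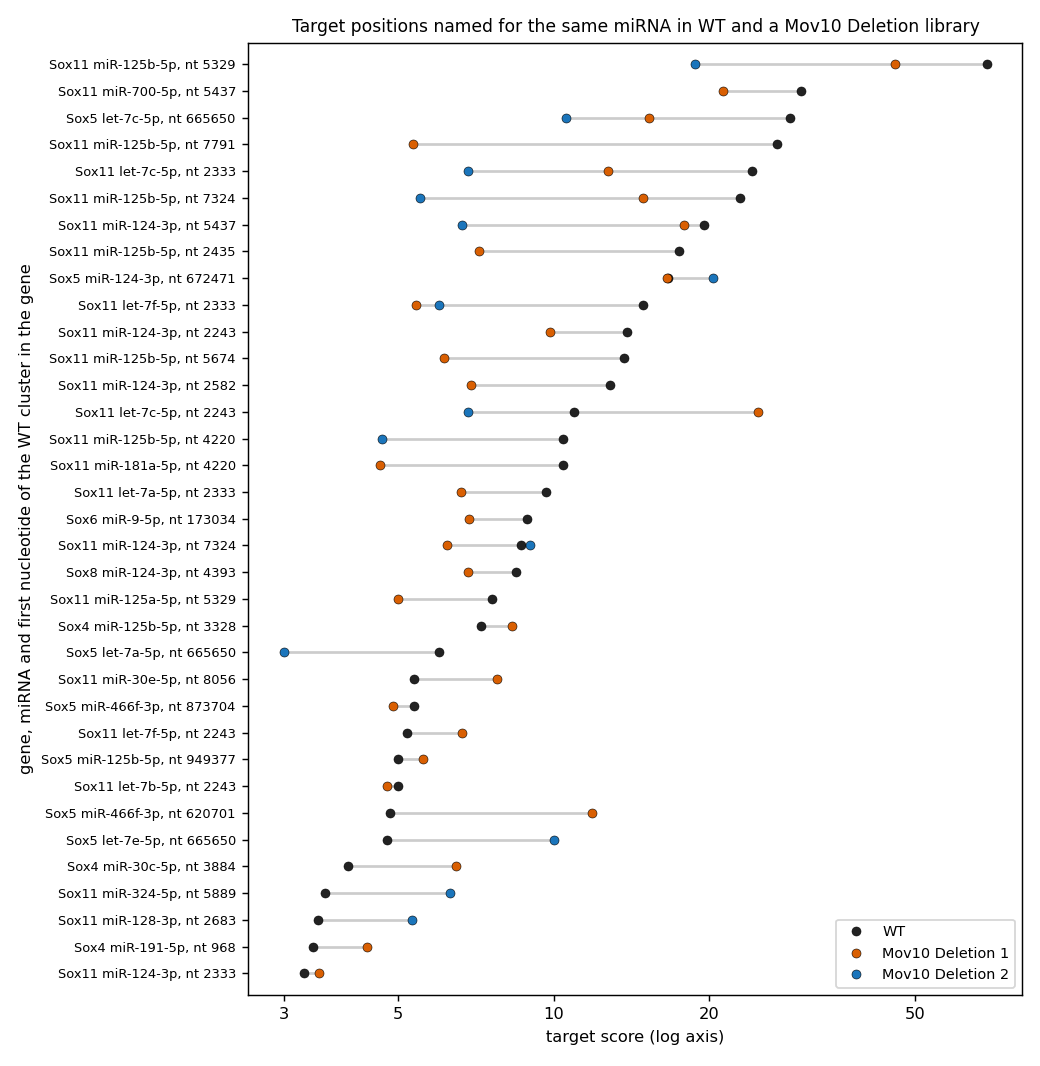
Target score (log axis) of each WT assignment that overlaps a cluster named for the same miRNA in a *Mov10* Deletion library, 35 in all, labelled by gene, miRNA and first nucleotide of the WT cluster. *Sox11* miR-125b-5p at nt 5329 is at the top with 69.1, 45.8 and 18.8, and *Sox5* miR-124-3p at nt 672471 has 16.6, 16.5 and 20.3. *Sox11* let-7c-5p at nt 2333 and at nt 2243 show the same *Mov10* Deletion 2 cluster.

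Seed matches were found in part of the assignments. Over the 8 genes, 21 of 58 WT assignments with a mature sequence held the 7-nt match, 16 of 52 in *Mov10* Deletion 1 and 8 of 24 in *Mov10* Deletion 2, and 14, 10 and 5 more held only the 6-nt match. miRNAs of the same seed on a cluster were counted separately, so these are not counts of distinct sites. In *Mov10* Deletion 2, for example, let-7a-5p, let-7b-5p, let-7c-5p and let-7e-5p share a single match in *Sox5*. No share of all windows was computed for the pooled counts. A match is a description of the letters in the cluster, and where none was found, pairing by other bases was not examined.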

How the data were processed

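Chimeric AGO2 eCLIP of P0 brain was analysed from the cluster lists of 1 WT and 2 *Mov10* Deletion IP libraries. Per the methods and the submitters' processing notes, the authors used UMI-tools 1.1.1, cutadapt 3.2, STAR 2.7.7a on mm10, CLIPper and, to match miRNAs to chimeric reads, Bowtie 1.2.3. The authors deposited the fold of IP over input as its log2 and its p-value as −log10 for each AGO2 cluster, and a score for each target cluster, whose meaning is not given in the sources used here. Whether clusters were called on pooled *Mov10* Deletion reads is not stated.

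Clusters were placed in RefSeq gene bodies of GRCm38.p6 with bedtools 2.31.1 and Python 3.11.15, at an overlap of at least 1 nt on the same strand. Strands were known for 45288 of 49997 genes (90.6%), from the RefSeq promoter table or, as for *Sox9* and *Sox10*, from GENCODE vM39. Features and sites come from GRCm39 by counting within the gene. For all 8 genes, neighbouring genes have the same spacing in both builds. Reads per cluster were inferred from the deposited ratio and p-value, with up to 60 input reads tried, and the method was tested on simulated data. It gave reads for every enriched cluster of the Sox genes. Intervals are Clopper-Pearson 95% intervals (scipy 1.17.1), and total depth is unknown.

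The members and gene lists were chosen with earlier results of these data known. All 8 genes are named, with the miRNAs assigned to them in WT and in at least 1 *Mov10* Deletion library and the 3 most frequent of each library. Other Sox genes and partners are described by counts. Alternatives were other thresholds, overlap rules, scores and left-out libraries, and 5 more were chosen after seeing the data.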

Additional observations from a re-analysis of the deposited data

How the results depend on the processing

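Of the values recomputed under an alternative, 90 kept within the spread or 1.5 times the main count and 23 moved. With log2 of at least 2, the enriched clusters of the Sox genes numbered 64, 135 and 79 for WT, *Mov10* Deletion 1 and *Mov10* Deletion 2, with log2 of at least 4 they numbered 11, 26 and 23, and with −log10 p of at least 5 *Mov10* Deletion 1 had 45 and *Mov10* Deletion 2 had 23. Without clusters of 1 inferred input read, *Mov10* Deletion 2 had 32. WT had 1 enriched gene at log2 of at least 4. Both *Mov10* Deletion libraries shared 1 enriched gene (*Sox5*) at −log10 p of at least 5 and 4 at log2 of at least 2, and leaving out a library gave 3 to 5. Target clusters with a score of at least 5 numbered 28, 29 and 16, and those with a single miRNA 29 in WT. Positions found again with the same miRNA numbered 23 at a score of at least 5, 14 without *Mov10* Deletion 1 and 30 without *Mov10* Deletion 2, and 9 where both libraries had to hold them. The share of target clusters on an enriched AGO2 cluster rose to 33.3%, 26.4% and 26.7% at log2 of at least 2, where the share over the library was not recomputed. No paired analysis was possible because WT has 1 library, so the genotypes share a single replicate number.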

Other observations

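Most of the other Sox genes also had AGO2 clusters, and the enriched ones were all in *Sox12* and *Sox13*. Of the 12 that are not in the group, 8 had an AGO2 cluster in WT and 7 in each *Mov10* Deletion library. Of these, 2 had an enriched one in each library, against 18.7%, 40.9% and 32.1% of all genes with a cluster in WT and *Mov10* Deletion 1 and 2. A target cluster was found in 3, 2 and 2, against 40.9%, 45.9% and 32.2%. *Sox12*, the remaining SoxC gene, held miR-125b-5p at chr2:152395256-152395350 with a score of 16.2 in WT, and on the overlapping cluster 3.78 in *Mov10* Deletion 1 and 10.8 in *Mov10* Deletion 2. It also held miR-124-3p at chr2:152395899-152395991, with 18.9, 4.29 and 3.87. Thus the miRNAs that led in *Sox11* were also named on *Sox12* in every library. *Sox13*, a SoxD gene, held let-7c-5p near its 3' end in WT (4) and *Mov10* Deletion 1 (6). *Sox1*, a SoxB1 gene, held miR-9-3p in WT (4.62) and miR-149-3p in *Mov10* Deletion 2 (6.85).

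Among 12 genes that act with Sox factors or lie downstream of them, all 12 had AGO2 clusters in each library, and 4, 8 and 4 had an enriched one, where the shares over all genes just given make the count in *Mov10* Deletion 2 close to the background. A target cluster was found in 7, 9 and 7 of the 12. *Prox1*, a transcription factor of neuronal differentiation, held miR-124-3p at chr1:190118056-190118115 with scores of 42.7, 21.8 and 11.7 in WT and *Mov10* Deletion 1 and 2. *Tubb3*, the neuronal tubulin, held miR-124-3p at chr8:123420806-123420872 with 47.4, 55.3 and 29.2. *Pou3f2*, a POU factor that acts with *Sox2* and *Sox11*, held miR-9-3p at chr4:22484333-22484468 with 14.9, 19.8 and 3. *Dcx*, a microtubule-associated protein of migrating neurons, held miR-135a-5p at chrX:143860544-143860620 with 13.4, 12.9 and 9.74. All of these recurred in the 3 libraries, but others of the 12 did not. *Pou3f3* and *Mbp* shared no miRNA between WT and a *Mov10* Deletion library, and *Olig1* and *Olig2* had target clusters in *Mov10* Deletion 1 alone.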
